A study of Cyanidioschyzon merolae strain 10D with 6 samples.

Results

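The largest family of annotated Copia elements in the nuclear genome of Cyanidioschyzon merolae, rnd-1_family-5, was followed copy by copy away from the chromosome ends. Members were the nuclear copies of the deposited transposable element (TE) annotation that carry this family name and the label Copia, and that lie at least 20000 bp from both ends of their chromosome. The ends were taken as position 1 and as the last base of any annotated gene or TE copy. The rule kept 1184 of the 1200 nuclear copies of the family, out of 5074 TE copies in the count tables. It used no expression value. One further line of the annotation carries the same family name with the label hAT and was not counted as a copy.

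The alga, a single-celled red alga, lives in hot and acidic springs, and its strain here is 10D. Poly(A) RNA was measured in 3 libraries of the wild type 10D and in 3 libraries of Cme(z)-1, a mutant of E(z), and the study asked how loss of function of Polycomb Repressive Complex 2 (PRC2) affects gene and TE transcripts. Both groups carry the 10D background and were grown the same way, in warm acidic medium under constant white light, per the labels. The labels name 1 mutant line and do not tie the replicates to separate cultures. P-values therefore measure only the spread between these libraries, which may be technical, and any other trait of this line goes with the group. The E(z) gene CMQ156C was read 1776, 1533 and 1770 times in the wild type libraries and not once in a mutant library. Values of single libraries are given in the order of the replicate numbers in the labels.

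Copia elements are retrotransposons with long terminal repeats, which copy themselves by way of an RNA that is reverse transcribed and inserted elsewhere in the genome. An intact element carries genes for a capsid-like protein and for a polyprotein with protease, integrase, reverse transcriptase and RNase H activity, and its repeats act as promoter and as polyadenylation signal. PRC2 methylates histone H3 through its E(z) subunit, and the mark is tied to repression of transcription. In unicellular eukaryotes this mark has been found over TEs as well as over genes.

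The copies were short, and many shared a size. Their length ran from 63 to 1411 bp with a median of 1306 bp, and 616 of them, 52.0%, measured between 1300 and 1400 bp. All 20 chromosomes held copies, from 28 on chromosome 2 to 120 on chromosome 20. Per 100 kb the density ran from 5.66 on chromosome 4 to 9.67 on chromosome 5. Single copies were spread out: the median gap to the next copy of the family was 4645 bp, and 170 copies had another within 100 bp.

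The copies sat between genes. Only 42 overlapped an annotated gene, 706 had a gap of 1 to 500 bp to the nearest gene, 414 a gap over 500 and up to 2000 bp, and 22 lay farther away. The median gap was 358.5 bp and the largest 5925 bp. Of the copies outside genes, 676 lay on the 5′ side of their nearest gene and 466 on its 3′ side. The annotated strand was the same as that of the nearest gene in 605 copies and the opposite in 579. Gene models in the deposited annotation hold coding sequence only, so a copy near a gene can lie in its untranslated region, and the libraries do not mark strand, so reads of a copy and of a transcript that runs across it cannot be told apart.

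Most copies were read at a low level in both groups. Levels are given as CPM (the reads of a copy relative to the size of its library), with library sizes scaled by the trimmed mean of M-values (TMM). The total counts ran from 7860491 to 9188335 in the wild type libraries and from 8292567 to 10754544 in the mutant libraries. The median wild type level of a copy was 4.96 CPM, with quartiles of 0.754 and 26.4 CPM and a maximum of 433 CPM. Per kilobase of copy the median wild type level was 4.93 CPM, against 88.3 CPM per kilobase of coding length for nuclear genes. The 10 most abundant copies held 12.3% of the CPM of the family's interior copies, by the mean over all 6 libraries, the top 50 held 33.6% and the top 100 held 50.1%. No read was counted in any library for 21 copies.

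Summed over all 1184 copies, the level in the mutant was close to that in the wild type. The sum was 27813, 29221 and 27011 CPM per wild type library and 27992, 31492 and 26809 CPM per mutant library. The groups overlapped, and mutant replicate 2 was the highest library. The means were 28015 ± 1119 and 28764 ± 2435 CPM (SD, n = 3 each), a log2 fold change of 0.045 with a standard error (SE) of 0.24. It did not pass the test (edgeR quasi-likelihood test, adjusted p = 0.95), in a fit in which 4.72% of all rows were called. Without mutant replicate 2 the value was -0.0302. The sum takes the copies as 1 row, so that a division of reads among them does not enter it; reads shared with copies outside the sum, and whether reads matching several places were kept, still do. In RNA from a culture, a change in the number of cells that transcribe a copy and a change in RNA per cell cannot be told apart.

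As a share of all counts, the copies took 2.72%, 2.78% and 2.72% per wild type library and 2.80%, 3.14% and 2.85% per mutant library. All mutant libraries lay above all wild type libraries. The means were 2.74 ± 0.035% and 2.93 ± 0.18% (SD, n = 3 each), a difference of 0.189 percentage points (two-sided exact permutation test, p = 0.1, the smallest that 3 against 3 libraries allow). Without mutant replicate 2 the difference was 0.0847 points. The share is taken before TMM scaling and the summed CPM after it.

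Single copies did change, in both directions. Of the 1184 copies, 846 had enough counts to be tested, and 28 of these rose and 11 fell in the mutant (edgeR, Benjamini-Hochberg adjusted p under 0.05 over all 7641 gene and TE rows tested). The calls for a rise were 3.31% of the tested copies, beside 3.40% of all rows, and those for a fall 1.30%, beside 1.54% of all rows. The counts among the copies were thus near the background of the whole table. In each of the 39 called copies the wild type and mutant libraries did not overlap, which the call nearly fixes. Over all 1184 copies the mutant libraries lay above all wild type libraries in 134 (11.3%) and below them in 90 (7.60%), beside 10.9% and 8.97% of all 10058 rows. A change of at least 2-fold was reached by 23 of the 28 risen copies and by 7 of the 11 fallen ones.

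The log2 fold changes of the 846 tested copies ran from -2.65 to 5.38, 453 lay above 0 and 393 below, and 690 of them, 81.6%, lay within 1.5-fold either way, beside 86.9% of all rows. Outside the calls, a further 39 tested copies reached 2-fold without passing the test, so that 8.16% of the tested copies did so in all, beside 6.31% of all rows. The median of the copies was 0.025, beside -0.011 for all rows. A further 338 copies were not tested because their counts were too low. Of the 338, 317 had reads in at least 1 library, with a median of 17 counts summed over the 6 libraries and at most 72. The untested copies together held 0.474% of the counts of the interior copies, and summed to 127 ± 20.2 CPM in the wild type and 141 ± 14.6 CPM in the mutant (SD, n = 3 each). With no low-count filter 1163 copies could be tested, and 27 rose and 12 fell, beside 2.77% and 1.35% of all rows.

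**Figure D1:**
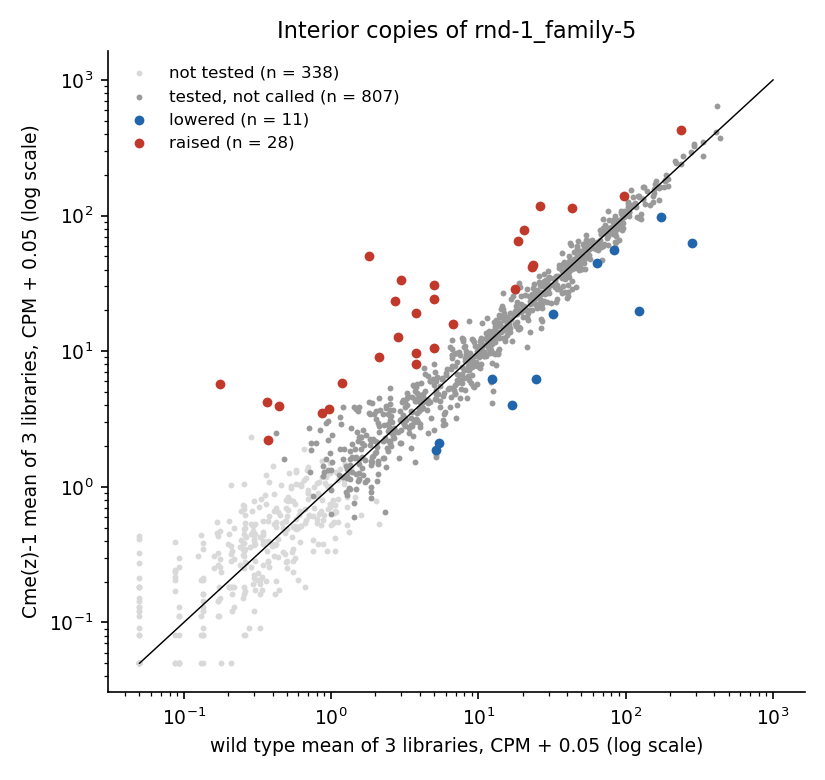
Each point is 1 of the 1184 interior copies, with its mean level in 3 wild type libraries on the x axis and in 3 mutant libraries on the y axis, both as CPM + 0.05 on log scales; the line marks equal levels. Most of the 807 tested copies that were not called lie along the line, the 28 raised copies lie above it mainly at low wild type levels, and the 338 untested copies lie at the lower left. Copies of low wild type level can pass the count filter through the mutant, so the position of the raised copies is a description.

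The number of calls depended on the tool and on single libraries. DESeq2 called 40 rises and 26 falls among the copies, beside 5.05% and 3.68% of all rows. Limma voom called 30 and 10, beside 3.47% and 1.47%. A test against a 2-fold change kept 11 rises and 3 falls, beside 1.31% and 0.183% of all rows. Without wild type replicate 1 the calls fell to 15 rises and 5 falls, and without mutant replicate 1 to 17 and 6. The whole table dropped as well, to 2.05% and 0.528% of all rows in the first case and 2.32% and 0.608% in the second. The other libraries left out in turn gave 19 to 26 rises and 5 to 9 falls, with 5 falls without mutant replicate 3 and 7 without mutant replicate 2. Over all rows these runs called 2.89% to 3.06% as rises and 1.11% to 1.43% as falls. With scaling by total counts alone there were 32 rises and 6 falls, so that rises made up 84.2% of the calls against 71.8% with TMM; with DESeq2 they made up 60.6%. Over all rows the share of rises moved likewise, from 68.8% with TMM to 78.5% with total counts and 57.9% with DESeq2.

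The copy with the largest ratio between the groups was TE_homo_2108, at positions 56820 to 58211 of chromosome 12, plus strand, 1392 bp long. It had 0, 1 and 2 reads per wild type library and 68, 44 and 57 per mutant library. The wild type was near silence and every mutant library was far above it. The ratio of summed counts, scaled to library size, was 46.8 (exact binomial 95% interval 15.7 to 229, counting error only; edgeR adjusted p = 0.00084). It lies 73 bp from the 5′ side of CML027C, which had 289 ± 17.5 CPM in the wild type and 270 ± 35.7 CPM in the mutant (adjusted p = 0.74), so its nearest gene did not pass the test.

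TE_homo_2687 rose from few reads to a higher level. It lies at positions 204169 to 205509 of chromosome 14, minus strand, 694 bp from the 3′ side of CMN082C. It had counts of 10, 5 and 28 in the 3 wild type and of 593, 568 and 290 in the 3 mutant libraries. Mutant replicate 3 held the lowest of the mutant values, still far above the wild type. Its level rose from 1.76 ± 1.56 to 50.3 ± 21.2 CPM (SD, n = 3 each; log2 fold change 4.83, SE 0.55, edgeR adjusted p = 0.0012). CMN082C did not pass the test, with a log2 fold change of 0.19, whereas the gene on the other side, CMN081C, fell from 297 ± 2.99 to 205 ± 28.7 CPM (adjusted p = 0.038), opposite to the copy.

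Further copies with few wild type reads rose in the mutant. TE_homo_4619, on chromosome 20 from 693488 to 694837, had 4, 3 and 1 reads per wild type library and 45, 33 and 47 per mutant library (log2 fold change 3.64, SE 0.44, edgeR adjusted p = 0.0018). TE_homo_2291, on chromosome 12 from 652844 to 653703, had 6, 2 and 2 counts against 58, 26 and 33 (3.23, SE 0.50, adjusted p = 0.0061). In both copies the lowest mutant library held several times the counts of the highest wild type library. TE_homo_1135, on chromosome 8 from 60291 to 61634, had 3, 1 and 4 counts against 28, 16 and 21 (2.70, SE 0.51, adjusted p = 0.016). Its call was lost when wild type replicate 1 or 2, or mutant replicate 1, was left out, with adjusted p from 0.0583 to 0.0898.

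TE_homo_1609 was the shortest of the raised copies, at 368 bp, and the one farthest from a gene, with a gap of 1399 bp. It lies on chromosome 10 from 64804 to 65171. It had counts of 18, 32 and 21 in the 3 wild type and of 367, 326 and 279 in the 3 mutant libraries, a rise from 2.92 ± 1.08 to 33.2 ± 6.75 CPM (a log2 fold change of 3.51, SE 0.30, edgeR adjusted p = 0.00022). The lowest mutant library lay far above the highest wild type library. A pair of DNA transposon copies of the TcMar-ISRm11 label lie beside it and rose with it: TE_homo_1608, at a gap of 58 bp, from 3.02 ± 0.73 to 52.6 ± 8.93 CPM (a log2 fold change of 4.12) and TE_homo_1607, at a gap of 594 bp, from 2.85 ± 1.26 to 25.9 ± 12.5 CPM (3.19).

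TE_homo_3449 was the raised copy of the highest wild type level among the 15 largest rises. It lies on chromosome 17 from 260480 to 261731 and had 270, 188 and 195 reads per wild type library and 1215, 1208 and 1015 per mutant library. The groups lay far apart, and the level rose from 26.3 ± 3.25 to 118 ± 26.1 CPM (edgeR log2 fold change 2.16, SE 0.18; adjusted p = 0.00016). A Harbinger copy 7 bp away, TE_homo_3448, rose from 0.552 ± 0.320 to 28.0 ± 5.31 CPM (5.60), and a Gypsy copy 1418 bp away, TE_homo_3446, from 1.57 ± 0.67 to 5.06 ± 1.15 CPM (1.70). The nearest gene, CMQ110C, was at 296 ± 69.8 and 217 ± 34.9 CPM and did not pass the test (adjusted p = 0.26).

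TE_homo_2914, on chromosome 15 from 219568 to 220691, was the only one of the 15 largest rises that overlaps a gene. It had counts of 23, 26 and 20 in the 3 wild type and of 109, 140 and 120 in the 3 mutant libraries (log2 fold change 2.18, SE 0.30, edgeR adjusted p = 0.0038). The gene it overlaps on the same strand, CMO087C, rose as well, from 3.59 ± 1.16 to 14.2 ± 1.29 CPM (1.98, SE 0.28, adjusted p = 0.0042). The overlap means that the deposited counts cannot separate them.

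The other 7 of the 15 largest rises had log2 fold changes from 2.07 to 3.13. TE_homo_4 on chromosome 1 rose from 2.67 ± 1.00 to 23.4 ± 3.90 CPM. TE_homo_1117 on chromosome 8 rose from 4.96 ± 1.12 to 24.2 ± 1.76 CPM. TE_homo_4710 on chromosome 20 rose from 3.73 ± 1.94 to 18.9 ± 2.07 CPM. In all 3 the mutant libraries lay close together, far above the wild type. TE_homo_1701 on chromosome 10 rose from 4.96 ± 4.42 to 30.7 ± 9.36 CPM, with 78 counts in wild type replicate 2 against 28 and 14 in the other wild type libraries, and its call was lost without wild type replicate 1 and without either of mutant replicates 1 and 2 (adjusted p 0.0812 to 0.123). TE_homo_724 on chromosome 5 (2.06 to 8.94 CPM), TE_homo_1159 on chromosome 8 (1.14 to 5.77 CPM) and TE_homo_809 on chromosome 6 (0.822 to 3.48 CPM) rose at low levels. The calls of TE_homo_1159 and TE_homo_809 were each lost in 4 of the 6 runs that left out 1 library.

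The remaining 13 raised copies had log2 fold changes from 0.53 to 1.97, at wild type levels from 0.921 to 237 CPM. The most abundant of them, chosen after its values were seen, was TE_homo_3855 on chromosome 18. It had 2006, 1926 and 1907 reads per wild type library and 4315, 3832 and 4576 per mutant library, a rise from 237 ± 12.7 to 430 ± 31.6 CPM (a log2 fold change of 0.86, SE 0.11, edgeR adjusted p = 0.0019). The groups were narrow and far apart. A LINE copy 251 bp away, TE_homo_3856, rose by 0.91.

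The largest fall was that of TE_homo_1851 at positions 85001 to 86347 of chromosome 11, plus strand. It had counts of 1329, 822 and 932 in the 3 wild type and of 221, 174 and 189 in the 3 mutant libraries. All mutant libraries lay far below the wild type. The level fell from 124 ± 21.7 to 19.7 ± 1.84 CPM (-2.65 as log2 fold change, SE 0.15, edgeR adjusted p = 1.9e-05). The nearest gene, CMK033C at a gap of 536 bp, was at 56.6 ± 7.24 and 54.4 ± 7.48 CPM and did not pass the test, whereas the gene on the other side, CMK034C, fell from 314 ± 48.1 to 37.6 ± 7.56 CPM (-3.06, adjusted p = 1.9e-05).

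TE_homo_1997, on the same chromosome from 551359 to 552665, was the fallen copy of the highest wild type level. It had 2870, 2232 and 1913 counts there and 655, 761 and 365 in the mutant libraries, a fall from 282 ± 38.7 to 62.3 ± 29.0 CPM (a log2 fold change of -2.19, SE 0.30, edgeR adjusted p = 0.0038). The groups did not overlap, and mutant replicate 3 was the lowest library. Neither flanking gene passed the test: CMK200C had a log2 fold change of -0.57 (adjusted p = 0.13) and CMK203C one of -0.51 (adjusted p = 0.30).

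The next copy fell together with its nearest gene. TE_homo_2990, on chromosome 15 from 464492 to 465853, starts 65 bp from the 3′ side of CMO185C, on the opposite strand. It had 143, 149 and 122 reads per wild type library and 35, 45 and 35 per mutant library (log2 fold change -2.08, SE 0.28, edgeR adjusted p = 0.0030). CMO185C fell from 240 ± 19.1 to 51.1 ± 7.46 CPM (-2.23). Another gene within 2000 bp of the copy, CMO184C, was also called lowered. TE_homo_3493 lies 197 bp from the 3′ side of the E(z) gene CMQ156C, which had no reads in the mutant; that this locus is E(z) is published knowledge of the alga and not in the labels. On its other side CMQ158C fell, with a log2 fold change of -0.92 (edgeR adjusted p = 0.0024). The copy had counts of 44, 50 and 38 in the 3 wild type and of 27, 13 and 22 in the 3 mutant libraries (-1.38, SE 0.32, adjusted p = 0.043), and its call was lost in each of the 6 runs that left out 1 library (adjusted p 0.0721 to 0.126).

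TE_homo_3631, on chromosome 17 from 871016 to 871441, had 205, 226 and 173 reads per wild type library and 104, 32 and 53 per mutant library (log2 fold change -1.98, SE 0.34, edgeR adjusted p = 0.0099). Its nearest gene, CMQ338C, was at 120 ± 14.8 and 118 ± 3.92 CPM and did not pass the test. TE_homo_232, on chromosome 2 from 356754 to 358030, fell from 173 ± 23.1 CPM to a mean of 98.2 ± 6.99 CPM (-0.82, SE 0.12, adjusted p = 0.0048). These copies kept their call without each library in turn. The other 5 fallen copies, TE_homo_2591, TE_homo_1487, TE_homo_2438, TE_homo_2569 and TE_homo_4510, had log2 fold changes from -1.47 to -0.52 and adjusted p from 0.037 to 0.048. Each of these calls was lost in at least 5 of the 6 runs that left out 1 library, and none changed direction.

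**Figure D2:**
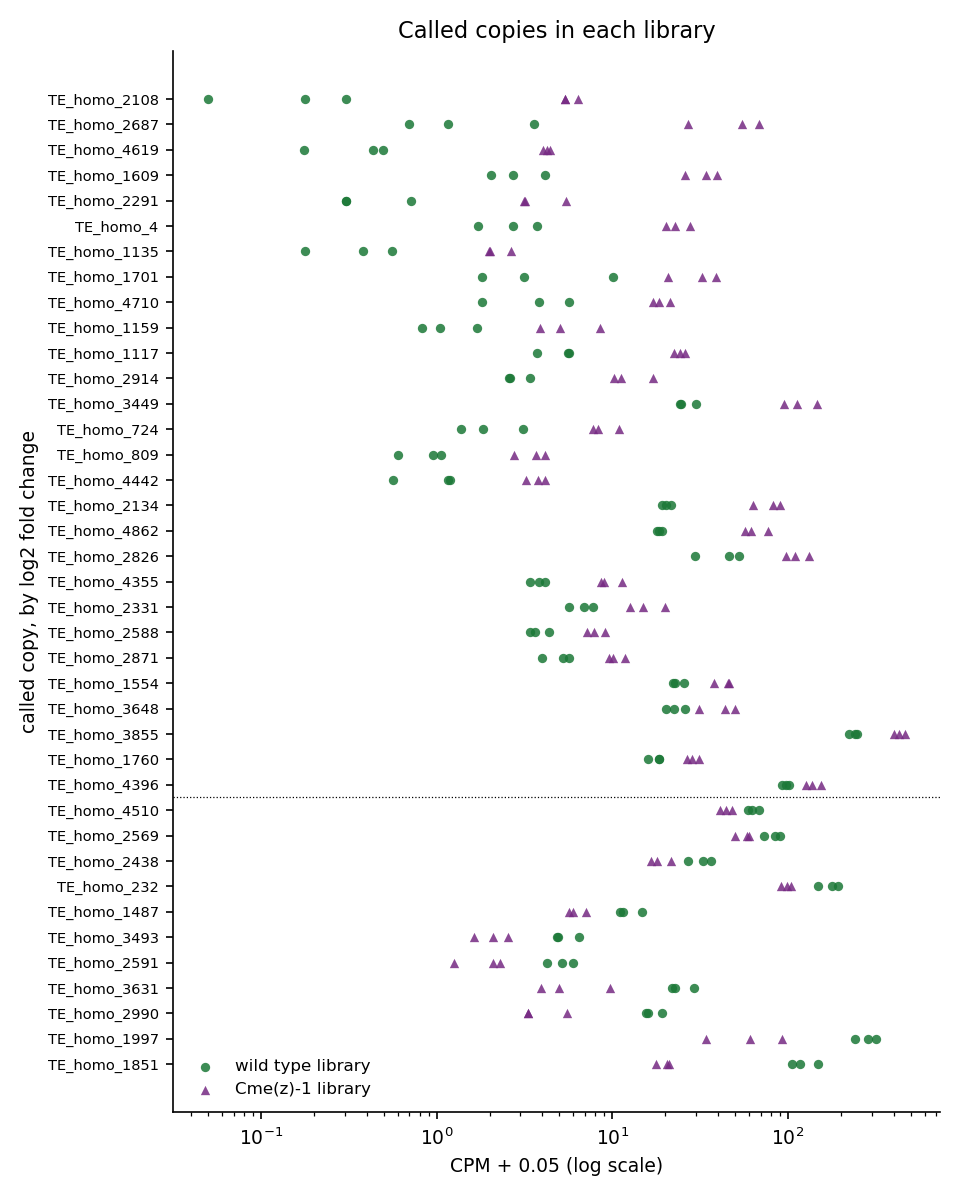
Each row is 1 of the 39 called copies, ordered by log2 fold change, with raised copies above the dotted line and lowered copies below; the x axis gives the level in each library as CPM + 0.05 on a log scale, circles for the 3 wild type and triangles for the 3 mutant libraries. The groups do not overlap in any row; the top row, TE_homo_2108, has wild type values near 0, and the bottom row, TE_homo_1851, falls from 124 to 19.7 CPM.

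The nearest gene was called beside 3 of the 39 called copies (7.69%), against 31 of all 1184 copies (2.62%); the difference was not tested. For the other 36 the nearest gene was not called, with log2 fold changes from -0.57 to 0.35 where it was tested. The exceptions were CMO087C, CMQ156C and CMO185C. CMO087C rose with the copy that overlaps it, and the deposited counts cannot separate them. CMQ156C and CMO185C fell with the copies on their 3′ side. CMQ156C is the E(z) gene itself, so its fall goes with the genotype of the mutant line. Both CMO087C and CMQ156C also enter the counts within 2000 bp that follow. Within 2000 bp, another called gene or TE copy moved the same way beside 5 of the 28 copies that rose and 3 of the 11 that fell. These are 8 of the 39 called copies (20.5%), where 88 of all 1184 copies (7.43%) had a called gene or other TE copy that near; this difference was not tested either. Across all 842 copies for which both values were available, the Spearman correlation between the log2 fold changes of a copy and its nearest gene was 0.16, and over all 1184 copies that of their wild type levels was 0.020. Copies that share a gene or a library are not independent points.

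Seen from the genes, 850 nuclear genes overlapped one of the copies or lay within 500 bp of one. Of 839 tested, 8 rose (0.954%) and 21 fell (2.50%), with a median log2 fold change of -0.032. Of 3838 other nuclear genes tested, 53 rose (1.38%) and 66 fell (1.72%), with a median of -0.037. Over all gene and TE rows tested, 3.40% rose and 1.54% fell. The difference between these counts was not tested.

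Called copies were dispersed over the genome. The 28 raised copies lay on 14 chromosomes, with 4 each on chromosomes 12 and 20, and the 11 lowered copies on 7, with 3 on chromosome 13. Only 1 pair of called copies lay within 10000 bp of one another: the raised TE_homo_2588 and the lowered TE_homo_2591 on chromosome 13, 6836 bp apart, which moved in opposite directions.

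By copy length, no class passed the test as a sum. The 735 copies of 1000 bp or more held 74.8% of the wild type CPM. They had 25 of the 28 rises and 7 of the 11 falls, from 585 of the 846 tested copies (4.27% and 1.20%). The 263 copies of 500 bp to under 1000 bp had 2 of each from 153 tested (1.31% each). The 159 copies of 200 bp to under 500 bp had 1 rise and 2 falls from 102 tested (0.980% and 1.96%). None of the 6 tested among 27 copies under 200 bp was called. Over all rows tested singly, 3.40% rose and 1.54% fell. Summed by class, the log2 fold changes were 0.048, 0.040, 0.025 and 0.047 in this order, with SE from 0.11 to 0.21, and none passed the test (edgeR adjusted p from 0.89 to 0.96; 4.74% of all rows were called in this fit). Over the 846 tested copies the Spearman correlation of fold change with length was 0.029.

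The 5 longest tested copies were not called. The raised TE_homo_2108 (1392 bp) and TE_homo_2826 (1390 bp) were shorter by a few bases only. TE_homo_3549 (1411 bp), TE_homo_2131 (1400 bp), TE_homo_250 (1396 bp), TE_homo_2808 (1395 bp) and TE_homo_2812 (1394 bp) had log2 fold changes of 0.19, -0.14, 0.12, 0.54 and -0.11. TE_homo_2131 was the steadiest, at 40.4 ± 0.71 CPM in the wild type and 36.7 ± 3.01 CPM in the mutant (edgeR adjusted p = 0.64). TE_homo_2808 had counts of 45, 6 and 42 in the 3 wild type and of 70, 48 and 42 in the 3 mutant libraries, so that the groups overlapped and wild type replicate 2 stood apart. Without that library its log2 fold change was 0.061, and that of TE_homo_3549 was 0.014.

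By distance to the nearest gene, the sums were again close. The 706 copies with a gap of 1 to 500 bp had 17 rises and 5 falls from 522 tested (3.26% and 0.958%). Their summed log2 fold change was 0.055 (SE 0.21). The 414 copies with a gap over 500 and up to 2000 bp had 9 rises and 6 falls from 279 tested (3.23% and 2.15%). Their summed value was 0.030 (SE 0.19). The 42 copies that overlap a gene had 2 rises (6.67%) and no fall from 30 tested, with a summed value of 0.035 (SE 0.13). The 22 copies farther than 2000 bp had no call from 15 tested, with a summed value of 0.029 (SE 0.13). Over all rows tested singly, 3.40% rose and 1.54% fell. None of the sums passed the test (edgeR adjusted p from 0.93 to 0.96; 4.74% of all rows were called). Over the tested copies the Spearman correlation of fold change with the gap was -0.0025.

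By chromosome, the copies of none of the 20 chromosomes passed the test as a sum, in a fit in which 4.72% of all rows were called. The lowest value was that of chromosome 11, whose 50 copies summed to 1607, 1596 and 1353 CPM per wild type library and 1125, 1359 and 1089 CPM per mutant library. The groups barely overlapped, mutant replicate 2 lying just above wild type replicate 3. The means were 1519 ± 143 and 1191 ± 147 CPM (a log2 fold change of -0.34, SE 0.15, edgeR adjusted p = 0.28). This chromosome holds TE_homo_1851 and TE_homo_1997. Of its 36 tested copies, 21 had a log2 fold change above 0, with a median of 0.075 over the tested copies. The highest value was that of chromosome 5, with 1121 ± 73.7 and 1339 ± 225 CPM (0.26, SE 0.16, adjusted p = 0.45), which holds TE_homo_658. Without mutant replicate 2 the value for chromosome 5 was 0.15, and without mutant replicate 3 it was 0.40.

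**Figure D3:**
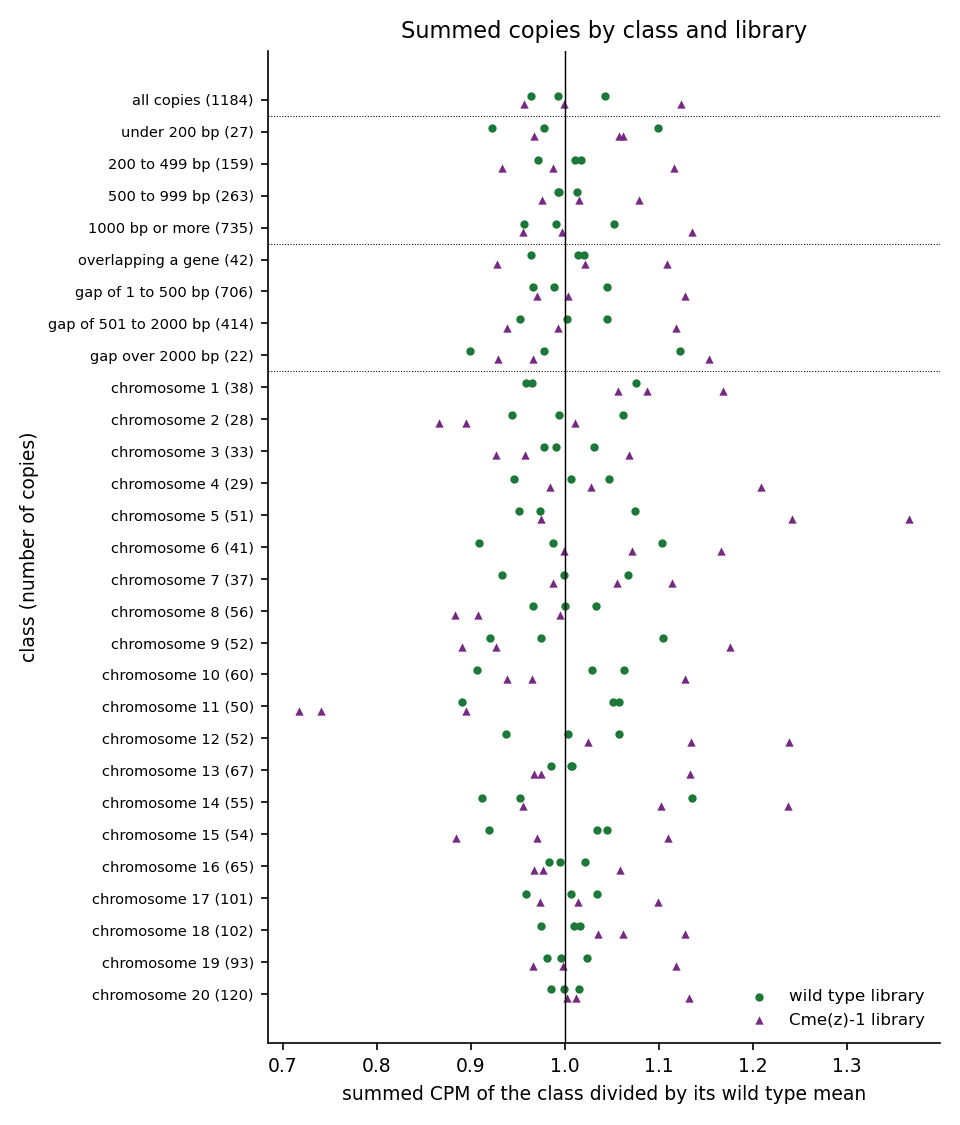
Summed level of the copies in each library, divided by the wild type mean of the same class, for all copies, 4 length classes, 4 classes of gap to the nearest gene and 20 chromosomes; circles are the 3 wild type and triangles the 3 mutant libraries, and the vertical line marks the wild type mean. Mutant and wild type libraries overlap for all copies together and in the length and distance classes, and the copies of chromosome 11 lie farthest to the left in the mutant.

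The 5 most abundant copies in the wild type were not called with all 6 libraries. TE_homo_1513 had 3900, 4095 and 2698 reads per wild type library and 3880, 3634 and 3322 per mutant library, or 433 ± 92.3 and 370 ± 65.4 CPM (edgeR adjusted p = 0.59). TE_homo_658 had 3415, 4043 and 2844 counts against 7451, 6359 and 4865, or 419 ± 86.9 and 638 ± 164 CPM (a log2 fold change of 0.61, SE 0.22, adjusted p = 0.18; 0.80 and adjusted p = 0.0492 without mutant replicate 3). The groups overlapped in the first and, after scaling, in the second. TE_homo_2689 had log2 fold change 0.0075, TE_homo_4162 had 0.054 and TE_homo_2982 had -0.27.

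By wild type level, the calls for a rise lay mostly among copies of low level. Of the 306 copies above 0 and up to 1 CPM, 30 were tested and 6 rose; of the 248 above that and up to 5 CPM, 225 were tested and 12 rose; neither class had a fall. The 245 copies above 5 and up to 20 CPM had 3 rises and 4 falls, and the 346 copies above 20 CPM, which held 87.8% of the wild type CPM, had 7 of each. A copy enters a low class in part because its wild type values happened to be low, and passes the count filter there through the mutant, so these counts are a description.

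The sums by wild type level carry the same limit. The class up to 1 CPM summed to 115, 109 and 139 CPM per wild type library and 177, 198 and 189 CPM per mutant library (log2 fold change 0.64, SE 0.12, edgeR adjusted p = 0.014; 4.75% of all rows were called). The groups did not overlap. Without wild type replicate 1 the adjusted p was 0.0884, and without mutant replicate 2 it was 0.051. The class up to 5 CPM summed to 617 ± 41.3 and 866 ± 99.7 CPM (0.49, SE 0.13, adjusted p = 0.080). The 2 higher classes had 0.055 and 0.026. The 39 copies without any wild type read had 29, 19 and 26 counts in all in the mutant libraries, which their choice fixes as higher.

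When the copies were classed by their mean over all 6 libraries, no class passed the test. The log2 fold changes of the summed classes were 0.18 up to 1 CPM (SE 0.13, edgeR adjusted p = 0.53), 0.15 up to 5 CPM (SE 0.13, adjusted p = 0.63), 0.061 up to 20 CPM and 0.040 above, in a fit in which 4.72% of all rows were called. The called copies then spread over the classes, with no call up to 1 CPM, 7 rises and 2 falls up to 5 CPM, 11 and 3 up to 20 CPM, and 10 and 6 above. Over the tested copies the Spearman correlation of fold change with this mean level was -0.044.

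**Figure D4:**
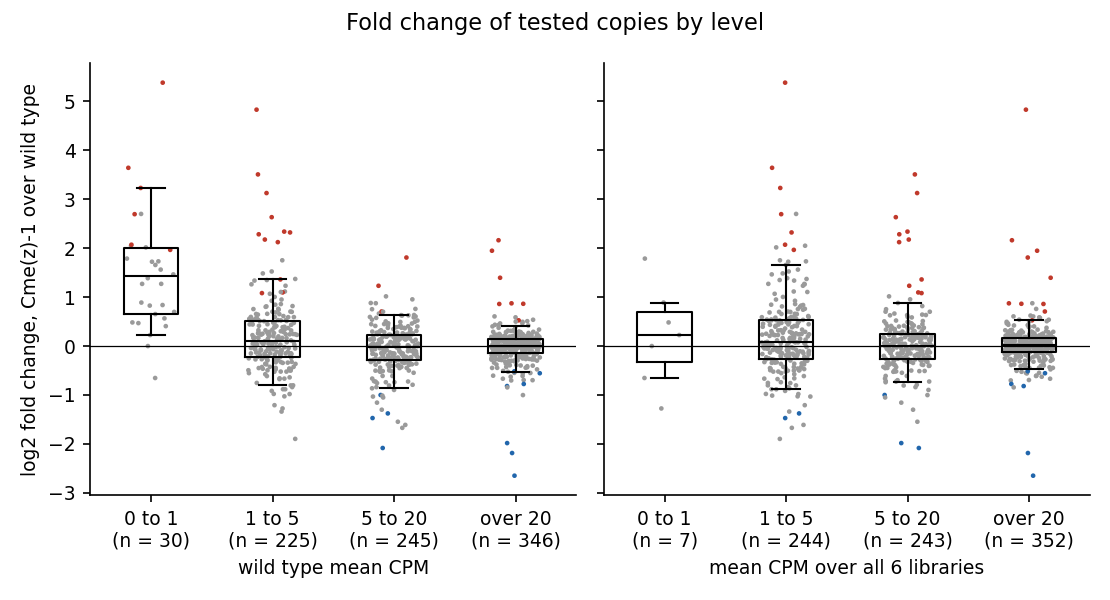
Log2 fold change of each of the 846 tested copies (y axis) by class of wild type mean CPM (left) and of mean CPM over all 6 libraries (right); boxes give the quartiles and median, whiskers the 5th and 95th percentiles, and red and blue points the raised and lowered copies. On the left the 30 tested copies up to 1 CPM lie mostly above 0, which their choice by wild type level and the count filter fix in part. On the right 7 tested copies up to 1 CPM remain, and the medians of the other classes lie near 0.

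The direction of the flanking genes went with the level of a copy. This grouping was chosen after the data were seen. The 389 copies between the 5′ sides of divergent genes had a median wild type level of 2.07 CPM per kilobase, the 521 between genes in tandem 5.44, the 232 between the 3′ sides of convergent genes 14.0, and the 42 that overlap a gene 4.47. In the mutant the medians kept this order for the first 3 classes, at 2.52, 6.39 and 13.2 CPM per kilobase. Copies on the 5′ side of their nearest gene had a median of 2.65 and those on its 3′ side one of 10.7 CPM per kilobase in the wild type. The spread within each class was wide, with quartiles of 0.532 and 17.3 CPM per kilobase between divergent genes and of 2.89 and 35.8 between convergent genes.

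Between divergent genes 14 of 244 tested copies rose and 2 fell, and between genes in tandem 11 and 6 of 379. Between convergent genes 1 rose and 3 fell of 193, and 2 rose of 30 that overlap a gene. Rises were 5.74%, 2.90%, 0.518% and 6.67% of the tested copies in this order, beside 3.40% of all rows. Falls were 0.820%, 1.58% and 1.55% in the first 3 classes, beside 1.54% of all rows. The classes also differ in level, with median wild type levels of 2.00, 5.85, 10.4 and 5.27 CPM. Copies of low level can pass the count filter through the mutant, so these counts are a description. On the 5′ side of the nearest gene 23 rose and 7 fell of 440 tested (5.23% and 1.59%). On the 3′ side 3 rose and 4 fell of 376 (0.798% and 1.06%). The difference between these counts was not tested. As sums the classes did not pass the test, with log2 fold changes of 0.031, 0.060, 0.034 and 0.035 in the order given (edgeR adjusted p from 0.92 to 0.96; 4.72% of all rows were called).

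**Figure D5:**
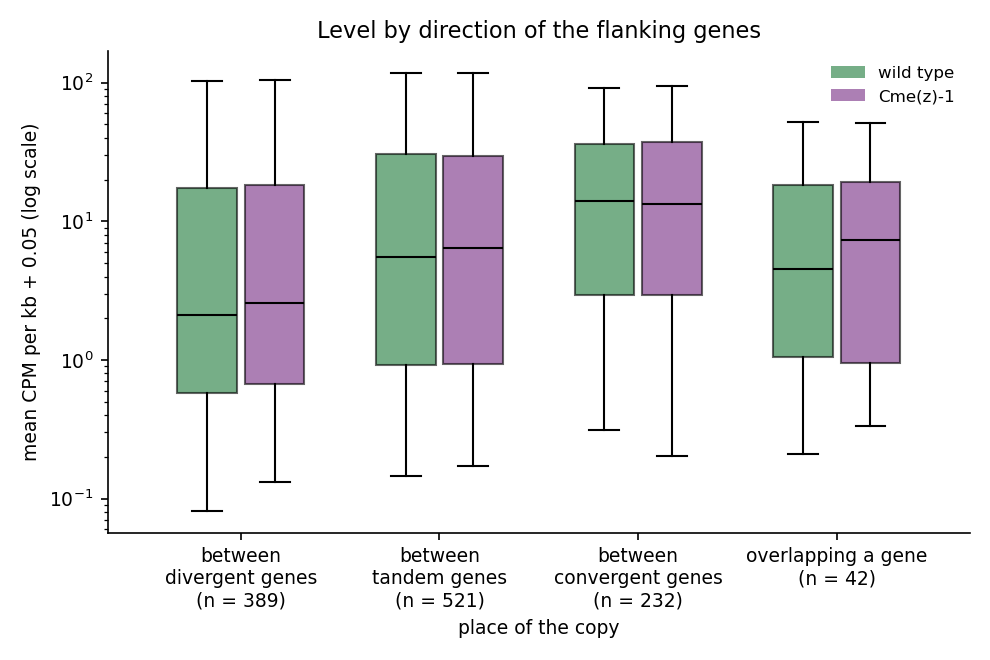
Mean level of the copies in CPM per kilobase + 0.05 (y axis, log scale) by the direction of the genes on both sides (x axis); boxes give the quartiles and median over copies, whiskers the 5th and 95th percentiles, green for the wild type and purple for the mutant. The wild type median is lowest between divergent genes, at 2.07 CPM per kilobase, and highest between convergent genes, at 14.0, and the mutant boxes lie close to the wild type boxes.

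The sum of the interior copies was also set against other TE copies of the same libraries. The log2 ratio of their sum to that of the 713 interior Gypsy copies was 0.585, 0.681 and 0.393 per wild type library and 0.544, 0.505 and 0.597 per mutant library. The mutant values lay within the wild type range, and the means were 0.55 ± 0.15 and 0.55 ± 0.046 (SD, n = 3 each; two-sided exact permutation test, p = 1). The log2 ratio to the 274 interior Copia copies of other families was 4.27 ± 0.062 in both groups (two-sided exact permutation test, p = 1). Of 383 tested Gypsy copies 43 rose (11.2%) and 3 fell (0.783%), and of 91 tested copies of other Copia families 1 rose (1.10%). In the family 3.31% of the tested copies rose and 1.30% fell, beside 3.40% and 1.54% of all rows. The differences between the counts of these lists and those of the family were not tested.

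The interior sum was set against the 16 copies of the same family near the chromosome ends. These summed to 173 ± 3.05 CPM in the wild type and 199 ± 15.97 CPM in the mutant, and 1 of 12 tested rose. The log2 ratio of the interior sum to theirs was 7.33, 7.38 and 7.32 per wild type library and 7.20, 7.18 and 7.15 per mutant library. All mutant libraries lay below all wild type libraries, with means of 7.34 ± 0.033 and 7.18 ± 0.021, a difference of -0.16 (two-sided exact permutation test, p = 0.1, the smallest that 3 against 3 allow).

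At the limit of 20000 bp itself, the copies just inside were TE_homo_1117 on chromosome 8, given above, and TE_homo_262 on chromosome 2. TE_homo_262 was at 0.856 CPM in the wild type and 3.55 CPM in the mutant, and was not called. Its adjusted p lay under 0.05 only with DESeq2 (0.031) and in edgeR with the replicate block (0.047) or without wild type replicate 3 (0.046). Without single libraries its log2 fold change ran from 1.63 to 2.89. Just outside, TE_homo_555 on chromosome 4 had 10.0 and 11.4 CPM and TE_homo_4406 on chromosome 19 had 11.6 and 12.7 CPM.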

How the data were processed

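The deposited values are raw read counts per gene and per single TE copy, which the authors gave in 1 table per library; coordinates come from the deposited gene annotation (its header names build ASM9120v1) and from the deposited TE annotation, whose lines name EDTA. Libraries were poly(A) enriched and unstranded, per the labels' protocols. The submitters' processing notes list STAR and Trim Galore. How reads were counted, and what was done with reads matching several copies, is not given in the sources used here and bears on every value of a single copy. No genome sequence was used here.

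Counts were fitted in edgeR 4.0.16 (R 4.3.3) over all genes and TE copies: filterByExpr (minimum count 10, minimum total 15), TMM, glmQLFit and glmQLFTest, Benjamini-Hochberg adjusted p under 0.05. Sums replaced the copies' rows in the same fit. The common biological coefficient of variation was 0.167. Shares and ratios were compared by exact permutation over libraries (SciPy 1.17.1). Standard errors come from the F statistic. The fit was tested on simulated counts. Within a group a chi-square statistic of each pair's counts was 16.2 to 33.3 times its degrees of freedom, so no library was taken as a repeat deposit of another; this does not tell separate cultures from repeat preparations.

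Named were the called copies with groups that do not overlap and at least 1 CPM in the higher group (up to 15 rises and 15 falls by size), the 5 most abundant and 5 longest tested copies, and 2 copies on either side of the limit. The members, classes and lists were chosen with earlier results of these data known. Alternatives were other scalings, filters, limits and tools (DESeq2 1.42.0, limma 3.58.1), the replicate number as a block, and each library left out in turn.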

Additional observations from a re-analysis of the deposited data

How the results depend on the processing

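Of the 26 called copies named, 12 kept their call under all 15 alternatives, 16 kept it without each library in turn, and none changed direction. Rises numbered 15 to 26 and falls 5 to 9 without 1 library. The test against a 2-fold change gave 11 and 3, beside 1.31% and 0.183% of all rows. Copies more than 500 bp from any gene had 9 rises and 6 falls. Only 294 of these were tested, against 846 in all, and the main fit called 3.40% and 1.54% of all rows. Falls numbered 6 with total counts alone, 7 with TMM on nuclear genes and 26 with DESeq2. Over all rows the falls in these fits were 1.11%, 1.13% and 3.68%, against 1.54% in the main fit. With the replicate block there were 24 rises and 7 falls, beside 3.05% and 1.11% of all rows. Same-numbered libraries had correlations of 0.0032, 0.14 and 0.26, and not every library correlated best with its own number. The labels do not say whether the numbers pair the libraries, and these correlations cannot settle it.

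For each class cut by wild type level, the choice fixes part of the direction, so the numbers that passed are a description. Leaving out the class at 0 in the wild type, whose direction is wholly fixed, 1 class passed. The number was 2 with total counts alone or with DESeq2, and 0 to 1 without 1 library. It was 0 when classed by the mean of all 6 libraries. The cause of these changes was not tested.

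Sums near 0 changed sign without single libraries. The log2 fold change of all copies ran from -0.0302 to 0.105. By length it ran from -0.0330 to 0.111 for 1000 bp or more and -0.00408 to 0.0856 for 500 to under 1000 bp. It ran from -0.0557 to 0.0924 for 200 to under 500 bp and -0.00975 to 0.113 under 200 bp. By gap it ran from -0.0168 to 0.111 for 1 to 500 bp and -0.0486 to 0.0973 over 500 and up to 2000 bp. It ran from -0.0766 to 0.118 beyond 2000 bp and -0.0347 to 0.111 for copies that overlap a gene. By wild type level it ran from -0.0548 to 0.111 for 5 to 20 CPM and -0.0439 to 0.0881 above. By flanking genes it ran from -0.0483 to 0.0896 (convergent), -0.0495 to 0.110 (divergent), -0.00790 to 0.109 (tandem) and -0.0347 to 0.111 (overlapping). The difference in log2 ratio ran from -0.0841 to 0.0597 against Gypsy and from -0.0326 to 0.0344 against other Copia copies.

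Chromosome 5 ran from 0.150 to 0.402 and chromosome 11 from -0.454 to -0.272. Without single libraries, TE_homo_658 ran from 0.448 to 0.803, TE_homo_2808 from 0.0611 to 0.876, TE_homo_3549 from 0.0139 to 0.299, TE_homo_2689 ran from -0.186 to 0.322 (and was -0.000948 with no low-count filter), TE_homo_4162 from -0.0868 to 0.228, TE_homo_2812 from -0.209 to 0.0245, TE_homo_555 from -0.0150 to 0.358 and TE_homo_4406 from -0.00808 to 0.257. Low counts limit the test: 338 copies were removed by the count filter. Without it 1163 copies gave 27 rises and 12 falls, beside 2.77% and 1.35% of all rows.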
